A study of Mus musculus with 2 samples.

Results

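The 9 genes described here regulate the primitive streak and the posterior body axis. They are Brachyury (*T*), the caudal-type homeobox genes *Cdx1*, *Cdx2* and *Cdx4*, the T-box genes *Eomes* and *Tbx6*, the homeobox genes *Mixl1* and *Gsc*, and the bHLH gene *Mesp1*. They were chosen by name and not by their values, although earlier results of these data were known. All 9 were found among the 29311 genes listed in the RNA-seq tables of the series. The series holds 1 library of wild-type ES cells of the E14 line, which is a pluripotent mouse line derived from the blastocyst, and 1 library of wild-type E10.5 forebrain from B6CBAF1/J embryos. According to the methods of the study, the ES cells were grown without feeder cells on gelatin, in medium with serum and LIF, a cytokine that maintains pluripotency. Forebrain RNA was taken from single embryos. Strain, tissue and culture therefore change together between the libraries and cannot be told apart. With 1 library per group there is no spread between replicates, no difference below has a replicate check, and no p-value was computed. The intervals given are 95% intervals on the number of reads and cover counting error only.

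The primitive streak is the site where cells of the epiblast leave the surface layer and form mesoderm and definitive endoderm. Wnt, Nodal and BMP signals induce it, and *T*, *Eomes*, *Mixl1* and *Gsc* are among the transcription factors that respond first. *Mesp1* then marks the earliest mesoderm and *Tbx6* the paraxial mesoderm, while Cdx proteins pattern the posterior axis and act upstream of *Hox* genes. Some of the factors have further roles outside the streak. *Cdx2* and *Eomes* act in the trophectoderm, *Eomes* (also called *Tbr2*) marks neuronal progenitors of the developing cortex, and *Gsc* is used again in mesenchyme of the head.

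Expression was deposited as RPKM, a number of reads per kb of exon. A common step in the low values was taken as the worth of 1 read. Whole reads, to within 0.05, were obtained for 62.3% of low values in the ES cell library and for 64.6% in the forebrain library, where 10% would be by chance, so the numbers of reads given here are estimates. The step gave 42793022 reads on genes in ES cells compared with 59783826 in E10.5 forebrain. The deposited scale is not per 1000000 reads. Division by 52.2 in ES cells and by 49.0 in E10.5 forebrain would bring the RPKM to reads per kb and per 1000000 inferred reads. Markers were then set beside the labels. The marker lists were written with earlier results of these data known, so they are not an independent check of the labels. By the 2-fold limit defined below, 23.3% of all listed genes were higher in ES cells, while 25.8% were higher in E10.5 forebrain. All 11 ES cell markers matched in the tables were at least 2-fold higher in ES cells, with *Pou5f1* at an RPKM of 11244 compared with 42.9 and *Zfp42* at 11505 compared with 58.9, and all 12 forebrain markers were at least 2-fold higher in E10.5 forebrain, with *Lhx2* at 877 and no read in ES cells, *Hes5* at 1199 compared with 3.58 and *Otx2* at 989 compared with 78.5. In these bulk samples, fewer cells that express a gene and less RNA per cell cannot be told apart.

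The genes fell into groups by the library in which they were found. *T*, *Cdx1*, *Cdx2*, *Cdx4* and *Mixl1* were higher in ES cells, *Eomes* and *Gsc* were higher in E10.5 forebrain, and *Tbx6* and *Mesp1* were called in neither direction. A call here means a difference of at least 1 in log2(RPKM + 1), where the added 1 makes fold changes at low RPKM look smaller than they are. Of the 9 genes, 5 were thus higher in ES cells, where 23.3% of all listed genes were, and 2 were higher in E10.5 forebrain, where 25.8% of all listed genes were. Among listed protein-coding genes alone the shares were 18.9% and 27.9%. With a 4-fold limit, 5 and 1 of the 9 genes were called, next to 11.3% and 14.4% of all listed genes and 8.93% and 15.6% of listed protein-coding genes. The median difference (ES cells minus E10.5 forebrain) was 2.28 for the 9 genes and -0.01 for all listed genes. The 9 genes together had a summed RPKM of 2265 in ES cells against 374 in E10.5 forebrain, with a ratio of 6.05 (5.70 to 6.43). The sums are carried by different genes. *T*, *Cdx1* and *Cdx2* held 91.0% of the sum in ES cells and 1.15% of that in E10.5 forebrain, where *Eomes*, *Gsc* and *Tbx6* held 97.9%.

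**Figure D1:**
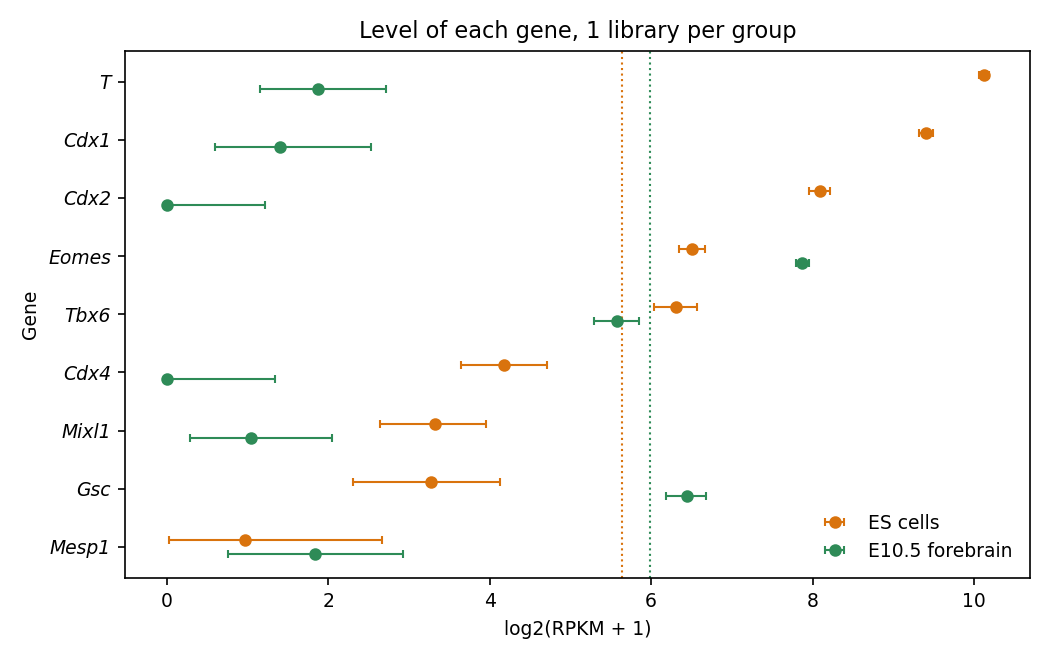
Level of each of the 9 genes as log2(RPKM + 1) in ES cells (orange) and E10.5 forebrain (green), 1 library each. Bars are 95% intervals on the number of reads, dotted lines are the medians of all listed genes, and *T*, *Cdx1* and *Cdx2* lie above the median in ES cells and near 0 in E10.5 forebrain.

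The upstream sequences of the genes that carry these differences are shown first, because *Cdx2* and *Cdx4* were the genes without a read in E10.5 forebrain, *T* had the highest level in ES cells, and *Eomes* and *Gsc* had the opposite direction. The sequences are the 250 bases before the RefSeq start of transcription (build GRCm38.p6, whereas the expression tables use NCBIM37), and they lie at chr17:8434173-8434422 for *T* (+ strand), chr5:147307250-147307499 for *Cdx2* (- strand), chrX:103321148-103321397 for *Cdx4* (+ strand), chr9:118477939-118478188 for *Eomes* (+ strand) and chr12:104473237-104473486 for *Gsc* (- strand). Capitals mark motif matches on either strand. The motifs, chosen with the sequences and the expression values in view, were the octamer ATGCAAAT that POU factors such as Oct4 bind, the TCF/LEF motif of Wnt signalling (CTTTGAA and its variant CTTTGAT, as well as CTTTGTA and its variant CTTTGTT) and the TATA box (TATAAA). None of the matches overlap.
*T*: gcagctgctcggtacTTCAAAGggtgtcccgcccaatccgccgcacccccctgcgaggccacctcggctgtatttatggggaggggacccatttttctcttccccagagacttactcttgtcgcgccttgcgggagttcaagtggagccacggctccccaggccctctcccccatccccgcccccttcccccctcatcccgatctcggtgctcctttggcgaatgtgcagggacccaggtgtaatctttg
*Cdx2*: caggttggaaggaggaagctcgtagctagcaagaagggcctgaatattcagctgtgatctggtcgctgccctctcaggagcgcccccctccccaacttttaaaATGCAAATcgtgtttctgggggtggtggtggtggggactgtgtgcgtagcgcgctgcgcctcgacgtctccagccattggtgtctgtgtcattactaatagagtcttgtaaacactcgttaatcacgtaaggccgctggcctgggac
*Cdx4*: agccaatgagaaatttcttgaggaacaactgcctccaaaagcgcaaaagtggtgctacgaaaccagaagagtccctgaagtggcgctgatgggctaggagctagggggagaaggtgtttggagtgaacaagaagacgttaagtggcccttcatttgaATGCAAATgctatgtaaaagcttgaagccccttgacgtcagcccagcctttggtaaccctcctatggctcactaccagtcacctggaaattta
*Eomes*: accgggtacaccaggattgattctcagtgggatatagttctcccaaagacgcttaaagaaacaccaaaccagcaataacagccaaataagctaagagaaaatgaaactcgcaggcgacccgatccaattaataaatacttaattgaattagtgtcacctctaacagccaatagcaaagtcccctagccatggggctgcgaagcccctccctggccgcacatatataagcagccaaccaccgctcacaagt
*Gsc*: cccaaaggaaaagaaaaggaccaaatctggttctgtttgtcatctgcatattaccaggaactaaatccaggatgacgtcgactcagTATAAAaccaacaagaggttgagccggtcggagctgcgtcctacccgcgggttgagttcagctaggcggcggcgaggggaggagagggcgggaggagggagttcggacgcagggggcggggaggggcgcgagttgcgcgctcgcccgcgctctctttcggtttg

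Of the 7 genes whose promoters were read (those of *Cdx1* and *Mixl1* were not used here), *Cdx2* and *Cdx4* held the octamer, which starts at -147 and -93 from the start of transcription. It is found in 1.6% of all 32851 RefSeq promoters of this length. The TCF/LEF motif was in *T*, at -235, and in *Mesp1*, and is present in 14.8% of all promoters. *Gsc* and *Tbx6* held the word TATAAA, as 12.4% of all promoters do, at -164 and at -43, respectively. Only this exact word was searched, at any position. Variants such as tatataag near the end of the *Eomes* sequence were not counted. The number of CpG dinucleotides was 22 in *Gsc*, 14 in *T*, 13 in *Cdx2*, 8 in *Eomes* and 5 in *Cdx4*, compared with a median of 6 over all promoters. A match is a description of these letters and does not show that a factor binds.

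*T* encodes the founding T-box factor, which is needed for posterior mesoderm and the notochord (ENSMUSG00000062327, chromosome 17, 8627288 to 8635361, NCBIM37). It had an RPKM of 1112 in ES cells (1065 to 1160.4), from 2106 reads. In E10.5 forebrain its RPKM was 2.66 (1.22 to 5.58), from 8 reads. The ratio between the libraries was 418 (199 to 909.8), and the intervals of the levels were far from overlapping. The difference of log2(RPKM + 1) was 8.25, which 78 of the listed genes exceeded. With a pseudocount of 0.1 it was 8.65, below that of *Cdx2* (11.41), which had no read in E10.5 forebrain. *T* stood at percentile 87.7 of all listed genes in ES cells and at percentile 21.7 in E10.5 forebrain. Per 1000000 inferred reads its level in ES cells would be 21.3 reads per kb. It was also 9.89% of the RPKM of *Pou5f1* and 22.4% of that of *Nanog* in the same library, which are core factors of pluripotency.

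*Cdx1* followed *T* closely (ENSMUSG00000024619, chromosome 18, 61178516 to 61195853). Its RPKM was 677 in ES cells (635 to 721), from 971 reads, and 1.64 in E10.5 forebrain (0.510 to 4.79), from 4 reads. The ratio was 413 (141 to 1330.3). *Cdx2*, a regulator of the trophectoderm as well as of the posterior axis, lies at chromosome 5, 148112381 to 148118846 (ENSMUSG00000029646). It had an RPKM of 272 in ES cells (248 to 296), from 503 reads, and no read in E10.5 forebrain (0 to 1.34). The level in ES cells was 249.9 times that which 3 reads in the forebrain library would give. With counting error in both libraries, the lower limit of the ratio was 202. *Cdx4* is X-linked (chromosome X, 100516737 to 100525931, ENSMUSG00000031326) and was the lowest of the Cdx genes. It had an RPKM of 17.1 in ES cells (11.6 to 25.2), from 28 reads, and no read in E10.5 forebrain (0 to 1.54). Its level in ES cells was 13.7 times the same floor of 3 reads, and the lower limit of the ratio was 10.6. The Cdx genes thus differed among themselves in ES cells, where their intervals were separate, whereas in E10.5 forebrain none was above 4 reads. Their summed RPKM was 966 in ES cells against 1.64 in E10.5 forebrain.

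The remaining T-box genes of the group were found in both libraries. *Eomes* (chromosome 9, 118387330 to 118395250, ENSMUSG00000032446) had an RPKM of 90.1 in ES cells (80.4 to 100.9), from 307 reads. In E10.5 forebrain it reached 234 (220.5 to 247), from 1185 reads, which was the highest level of the 9 genes there. It was 2.59-fold higher in E10.5 forebrain (2.28 to 2.95). In the same library *Eomes* was 58.4% of the RPKM of *Neurog2*, a proneural factor. *Tbx6* (chromosome 7, 133924997 to 133929074, ENSMUSG00000030699) had an RPKM of 78.5 in ES cells (64.9 to 94.1), from 116 reads, and 47.0 in E10.5 forebrain (38.2 to 56.7), from 103 reads. It was 1.67-fold higher in ES cells (1.28 to 2.21), which is beyond counting error but within the 2-fold asked for. Unlike *T*, both genes had over 100 reads in each library.

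*Mixl1*, *Gsc* and *Mesp1* were low in ES cells. *Mixl1*, a homeobox gene of the streak that acts in endoderm formation, lies on chromosome 1, 182623174 to 182627165 (ENSMUSG00000026497). It had an RPKM of 9.05 in ES cells (5.27 to 14.5), from 17 reads, and 1.07 in E10.5 forebrain (0.221 to 3.13), from 3 reads. The ratio was 8.46 (2.44 to 45.0). *Gsc*, the homeobox gene of the organizer, lies on chromosome 12, 105709419 to 105711537 (ENSMUSG00000021095). Its RPKM was 8.69 in ES cells (3.97 to 16.5), from 9 reads, compared with 85.8 in E10.5 forebrain (71.5 to 101.4), from 132 reads. *Gsc* was hence 9.87-fold higher in E10.5 forebrain (5.03 to 22.0), the largest difference in that direction among the 9 genes. *Mesp1* (chromosome 7, 86937127 to 86938674, ENSMUSG00000030544) rested on 1 read in ES cells (RPKM 0.96, 0.0242 to 5.33) and on 4 reads in E10.5 forebrain (RPKM 2.57, 0.70 to 6.58). Its ratio of 2.68 (0.266 to 132) does not show a direction at this depth.

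The order of the genes differed between the libraries. In ES cells it was *T*, *Cdx1*, *Cdx2*, *Eomes*, *Tbx6*, *Cdx4*, *Mixl1*, *Gsc* and *Mesp1*. The intervals overlapped between *Eomes* and *Tbx6*, between *Cdx4* and *Mixl1*, between *Mixl1* and *Gsc*, and between *Gsc* and *Mesp1*. In E10.5 forebrain *Eomes* was first, followed by *Gsc* and *Tbx6*, each separate from the next. *T*, *Mesp1*, *Cdx1*, *Mixl1*, *Cdx2* and *Cdx4* came after a gap, with overlapping intervals between neighbours. In ES cells 5 of the 9 genes were above the median RPKM of all listed genes (48.9), and in E10.5 forebrain 2 were above the median of that library (62.4).

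**Figure D2:**
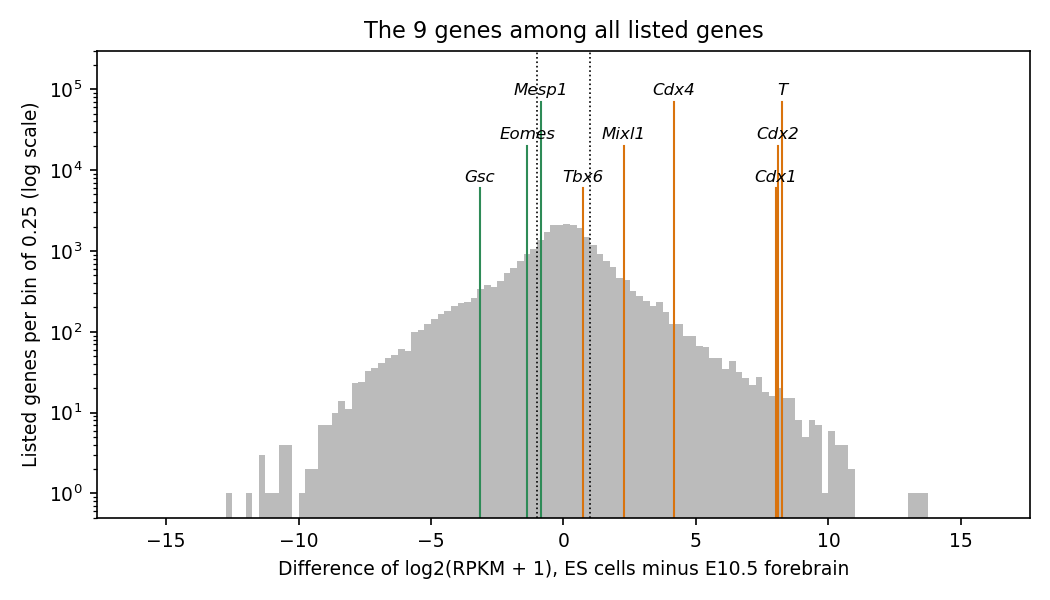
Number of listed genes (grey, log scale) by their difference of log2(RPKM + 1), ES cells minus E10.5 forebrain, in bins of 0.25. Vertical lines mark the 9 genes, dotted lines the 2-fold limits, and *T*, *Cdx1* and *Cdx2* lie together at differences of at least 8.

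The few reads of *T* and *Cdx1* in E10.5 forebrain were set beside those of ES cell markers. The RPKM in E10.5 forebrain was 0.239% of that in ES cells for *T* and 0.242% for *Cdx1*. For 8 of the 11 ES cell markers it was under 1% as well, including *Nanog* at 0.184% and *Pou5f1* at 0.382%, and over the whole list it extended from 0.0734% for *Tdgf1* to 36.2% for *Sox2*, which neural progenitors express too. The values of *T* and *Cdx1* lay within this range, which is too wide to tell them from other genes that are lower in E10.5 forebrain. Whether the reads of *T* and *Cdx1* there came from forebrain cells was not tested.

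Relatives of the 9 genes were then compared. Of the 14 other listed genes on the T-box list, 3 were higher in ES cells past 2-fold, 7 were higher in E10.5 forebrain and 4 were within 2-fold. Their median difference was -0.97. The 14 include *T2*, one of the 7, although it is annotated as a processed transcript. *Tbx3*, a T-box factor of naive pluripotency, was the most similar to *T* in level, with an RPKM of 955 in ES cells, but it also had 151 in E10.5 forebrain. *Tbx20* (27.2 compared with 6.56) and *Tbx21* (12.02 compared with 1.32) were higher in ES cells at low levels. *Mga*, which carries a T-box and a bHLH domain, was the highest of the family in both libraries (1359 and 804). In E10.5 forebrain *Tbx2* (431), *Tbx18* (285), *Tbx15* (137) and *Tbx22* (80.9) were the T-box genes with the largest differences, with at most 8.87 in ES cells. *Tbr1*, which follows *Eomes* in cortical neurons, had an RPKM of 54.0 in E10.5 forebrain and 3.12 in ES cells. *T2*, annotated as a processed transcript upstream of *T* on the same strand, was 2.54-fold higher in E10.5 forebrain (33.3 compared with 13.1), opposite to *T*. *Tbx1* was higher in E10.5 forebrain (17.6 compared with 0.67), while *Tbx4*, *Tbx5* and *Tbx10* had an RPKM under 4 in both libraries. *Tbx19* was not listed.

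The Cdx genes are related to the ParaHox genes *Gsx1*, *Gsx2* and *Pdx1*, and *Cdx2* shares a cluster with *Gsx1* and *Pdx1*. *Gsx2* (60.0) and *Gsx1* (15.7), which pattern the ventral telencephalon, were found in E10.5 forebrain and had 1.36 and 1.38 in ES cells, from 2 reads each. *Pdx1*, the pancreatic member, had 1.41 in ES cells from 5 reads and no read in E10.5 forebrain. None of these relatives approached the levels of *Cdx1* or *Cdx2* in ES cells.

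**Figure D3:**
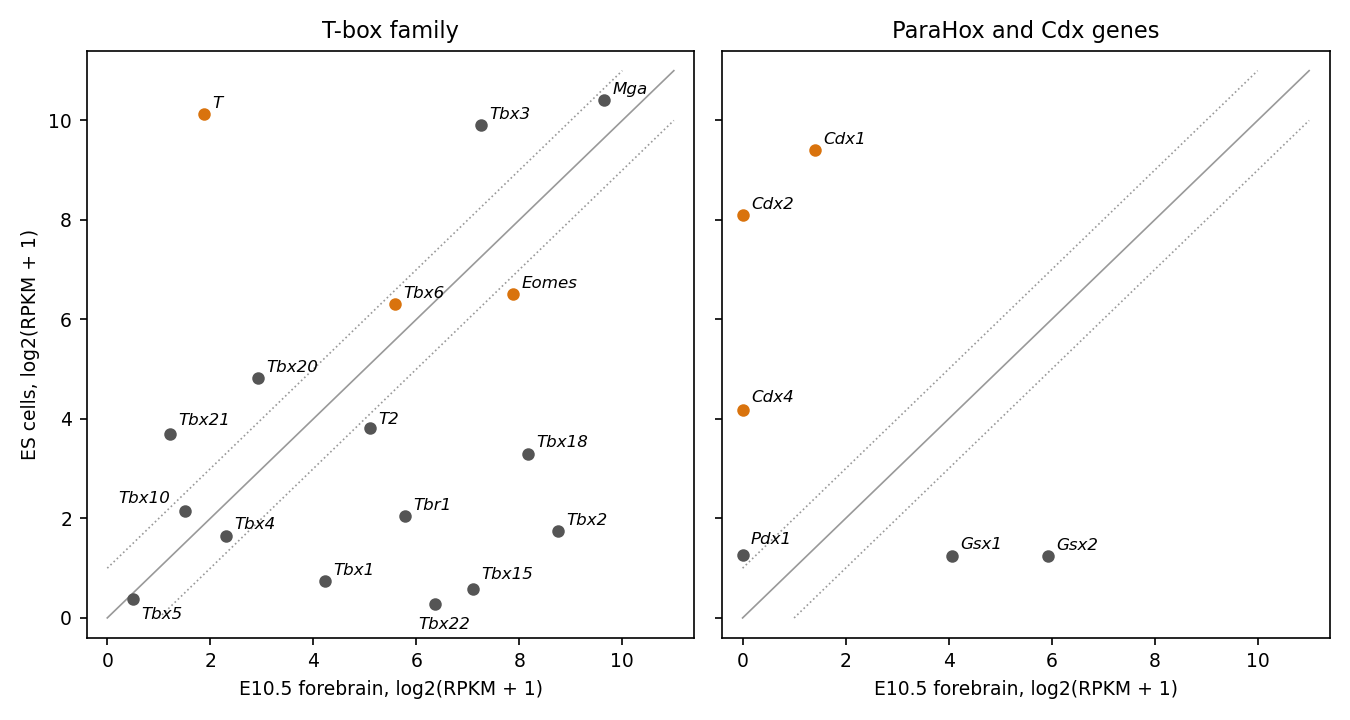
Level as log2(RPKM + 1) in ES cells against E10.5 forebrain for the listed T-box genes and *T2* (left) and the ParaHox and Cdx genes (right), with the genes described here in orange. The solid line marks equal levels and the dotted lines 2-fold differences, and *T*, *Cdx1* and *Cdx2* stand in the upper left corner.

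Genes that act around the 9 factors were compared by lists, which were not picked for how their genes moved but were written with earlier results of these data known. The genes named from them include some chosen after their values were seen. Among 18 signals and effectors that induce the streak, 8 were higher in ES cells past 2-fold, 6 were higher in E10.5 forebrain and 4 were within 2-fold. Both counts were above the shares of all listed genes (23.3% and 25.8%) and of listed protein-coding genes (18.9% and 27.9%). The median difference was -0.06, next to -0.01 over all listed genes. Genes of Nodal signalling were divided. *Nodal* had an RPKM of 704 compared with 3.32, its co-receptor *Tdgf1* had 6432 compared with 4.72, *Gdf3* had 2094 compared with 3.47 and the effector *Foxh1* had 1002 compared with 9.72. The receptor *Acvr2b* was higher in E10.5 forebrain instead (457 and 1194), and *Smad2* (966 and 1318) and *Gdf1* (118 and 125) were within 2-fold. *Fgf4* (1476 and 1.89) and *Bmp4* (1749 and 264) were higher in ES cells as well. Wnt ligands were divided as well. *Wnt8a* was higher in ES cells (89.5 and 0.47), whereas *Wnt3* (4.76 and 71.5), *Wnt3a* (7.52 and 82.8) and *Wnt5a* (4.45 and 336) were higher in E10.5 forebrain. *Fgf8*, a ligand of the streak and of forebrain patterning centres, had no read in ES cells and an RPKM of 83.7 in E10.5 forebrain. Among the effectors, *Ctnnb1*, which encodes beta-catenin, was within 2-fold (18558 and 24145), as was *Lef1* (82.6 and 84.1), whereas *Tcf7* was higher in ES cells (235 and 97.3) and *Tcf7l1* in E10.5 forebrain (12.5 and 95.6).

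Of 31 further genes of the streak and early mesoderm, 29 were listed, the exceptions being *Msgn1* and *Cer1*. Of these, 7 were higher in ES cells past 2-fold, 13 were higher in E10.5 forebrain and 9 were within 2-fold, with a median difference of -0.91. Over all listed genes the shares were 23.3% and 25.8%, so the count towards ES cells does not set this list apart. The count towards E10.5 forebrain, 13 of 29, was above the share of all listed genes and above the 27.9% of listed protein-coding genes. The 7 genes were *Lefty2*, *Nkx1-2*, *Evx1*, *Sp5*, *Tcf15*, *Gata4* and *Mesp2*, of which *Gata4* had 3.12 and 0.52, from 10 and 2 reads. *Lefty2*, a Nodal target and antagonist, had an RPKM of 1038 in ES cells against 1.83 in E10.5 forebrain. *Nkx1-2*, a homeobox gene of the caudal epiblast, had 858 and 4.14, and *Sp5*, a Wnt target, had 673 and 41.8. *Tcf15*, a gene of paraxial mesoderm, had 509.5 and 40.1. *Evx1*, a homeobox gene of the posterior streak, had 35.4 in ES cells and no read in E10.5 forebrain. Its level in ES cells was 41.5 times the floor of 3 reads. *Mesp2*, the neighbour and paralog of *Mesp1*, had 7.57 and 2.54, from 12 and 6 reads. Of the 29 genes, 13 had an RPKM under 10 in ES cells, compared with 10 genes in E10.5 forebrain. *Gata6* had 1.34 in ES cells against 5.90 in E10.5 forebrain, *Hand1* had 0.61 and 1.23, and *Foxa2* had 1.55 and 30.1. *Aldh1a2* had 22.1 and 14.65, and *Kdr* had 24.99 and 601. Other genes of the list reached higher levels in ES cells. Among them, *Axin2* (993 and 615), *Fst* (296 and 215) and *Fgf17* (83.2 and 157) were within 2-fold. *Pdgfra* had the largest difference towards E10.5 forebrain (7.25 in ES cells against 1796 in E10.5 forebrain), followed by *Dll1* (10.4 and 782).

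Markers of other cell types were read for the roles that some of the 9 genes have outside the streak. Of 12 trophoblast markers 10 were matched in the tables, 3 were higher in ES cells past 2-fold and 3 in E10.5 forebrain, and the median difference was -0.27. Their summed RPKM was 2656 in ES cells against 455 in E10.5 forebrain, of which *Esrrb*, also a pluripotency factor, held 2140.4 in ES cells. The trophoblast factors *Elf5*, *Gata3*, *Hand1*, *Esx1* and the keratin *Krt7* had an RPKM of 0.25 to 2.08 in ES cells, beside the 272 of *Cdx2*. The other markers were higher there. *Tead4* had 263 in ES cells compared with 56.3 in E10.5 forebrain, *Ascl2* had 72.7 compared with 6.61, *Krt8* had 108 compared with 129 and *Krt18* had 67.7 compared with 190.1. Of 12 endoderm markers, 2 were higher in ES cells past 2-fold and 10 in E10.5 forebrain, with a median difference of -2.61. They summed to 38.0 in ES cells against 2138 in E10.5 forebrain, with 11 of 12 under an RPKM of 10 in ES cells and *Foxa1* and *Ttr* at 0. *Pdgfra*, which mesenchyme expresses too, held 1796 of the sum in E10.5 forebrain, and *Dab2* held 202. The largest difference towards ES cells was that of *Amn* (16.7 and 1.94).

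In E10.5 forebrain, genes of cortical neurogenesis stood beside *Eomes*. Of 10 such genes, 9 were higher in E10.5 forebrain past 2-fold and 1, *Btg2*, was within 2-fold, with a median difference of -5.23. Their summed RPKM was 5605 in E10.5 forebrain and 1429 in ES cells, and none was at 0 in either library. *Neurog2* had 400.0 in E10.5 forebrain and 0.55 in ES cells, from 1 read, and *Tubb3*, a neuronal tubulin, had 3318 and 795. Markers of head mesenchyme and surface ectoderm stood beside *Gsc*. Of 12 such markers 11 were matched in the tables, 9 were higher in E10.5 forebrain past 2-fold and 1, *Epcam*, was higher in ES cells, and the median difference was -6.61. They summed to 8084 in E10.5 forebrain and 1849 in ES cells, of which *Epcam* held 1685, and none was at 0 in either library. The mesenchymal factors *Twist1* (1556 and 12.8), *Alx1* (1448 and 4.78) and *Alx4* (767 and 0.35) were far above *Gsc* in E10.5 forebrain. Their part in the level of *Gsc*, and that of the neurogenesis genes in the level of *Eomes*, was not tested.

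**Figure D4:**
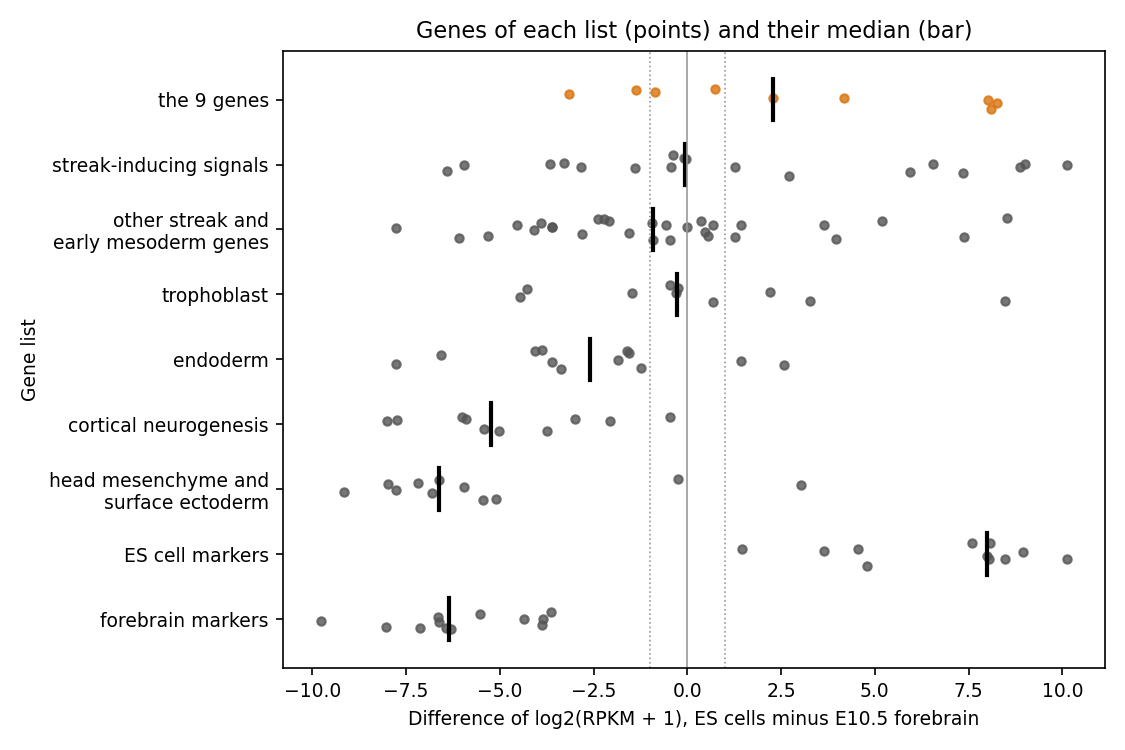
Difference of log2(RPKM + 1), ES cells minus E10.5 forebrain, for each listed gene (points) and the median (bar) of the 9 genes and of lists of pathway and marker genes. Dotted lines mark 2-fold differences, and genes of both streak lists extend to either side of 0.

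The neighbourhoods of the genes were compared as well. None of the 9 genes overlaps another annotated gene. Among the 18 nearest listed protein-coding genes, taken on either side, 6 were higher in ES cells past 2-fold, 3 were higher in E10.5 forebrain and 9 were within 2-fold. The shares over all listed protein-coding genes were 18.9% and 27.9%. Of the 6, *Pdx1*, *Prhoxnb* and *Mesp2* rested on 5, 3 and 12 reads in ES cells. Of the 3, *Gm10000* rested on 15 reads in E10.5 forebrain. Both genes around *T* differed from it, since *Sft2d1* had 218 in ES cells against 111 in E10.5 forebrain and *Pde10a* had 4.75 and 30.2. The neighbours of *Cdx2*, *Pdx1* and *Prhoxnb* at 22.8 kb and 7.72 kb, had at most 4.79 in ES cells and no read in E10.5 forebrain. *Slc6a7*, which lies 4.66 kb from *Cdx1*, had 44.9 in ES cells and no read in E10.5 forebrain, while *Pdgfrb* on its other side had 26.7 and 764. *4930519F16Rik*, next to *Cdx4* at 9.62 kb and on the opposite strand, was higher than *Cdx4* itself in ES cells (172) and had 0.22 in E10.5 forebrain, from 1 read. *Tbx6* has close neighbours, with *Ypel3* 0.968 kb before it on the same strand (127 and 167) and *Ppp4c* 0.346 kb after it on the opposite strand (7553 and 5975). *Ppp4c* was therefore far higher than *Tbx6* in both libraries, and whether reads from these genes reach the values of *Tbx6* was not tested.

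**Figure D5:**
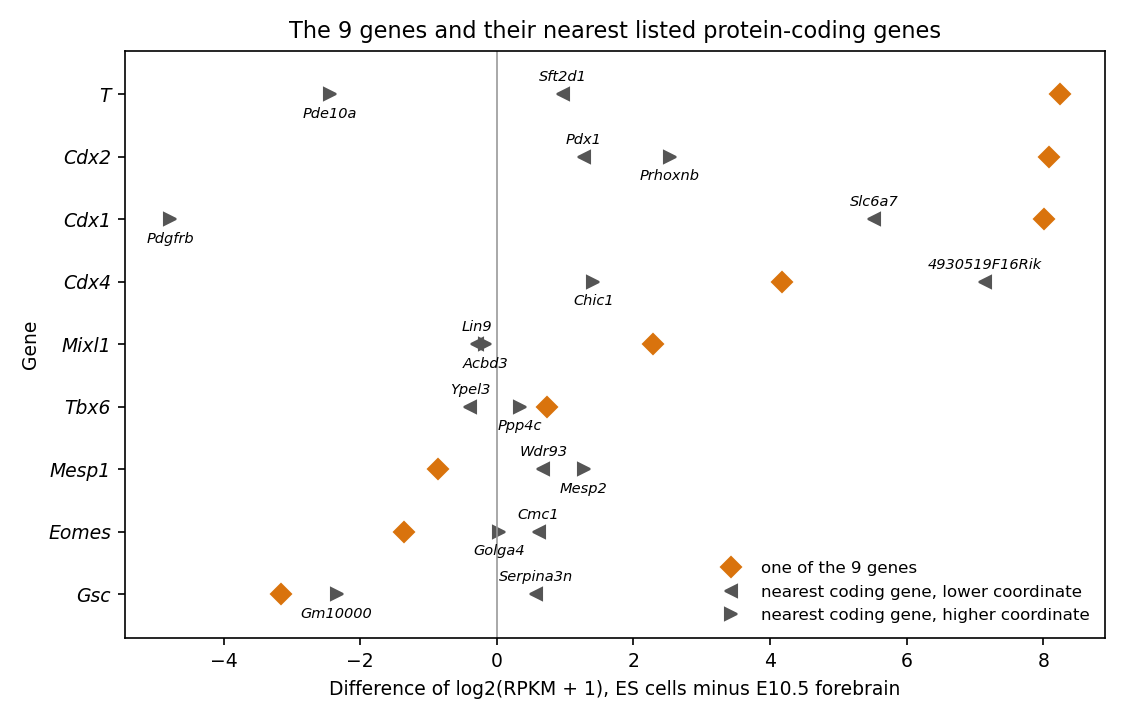
Difference of log2(RPKM + 1), ES cells minus E10.5 forebrain, of each of the 9 genes (diamonds) and of the nearest listed protein-coding gene at lower and higher coordinates (triangles). For *T* and *Cdx2* both neighbours lie far to the left of the gene, while *4930519F16Rik* lies to the right of *Cdx4*.

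Finally, the genes closest in pattern were searched by the distance in log2(RPKM + 1) over the 2 libraries, which with so few points reflects the levels alone. The 3 protein-coding genes nearest to *T* were *Gm7325* (1172 in ES cells against 2.60 in E10.5 forebrain), *2410004A20Rik* (1113 and 2.39) and *Gsta3* (1004 and 2.50), at distances of 0.0790, 0.111 and 0.161. Nearest to *Eomes* were *Lats2* (90.2 and 233), *1810049H13Rik* (90.8 and 235) and *Kif24* (91.2 and 236), at distances of 0.00585, 0.0140 and 0.0232.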

How the data were processed

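RNA-seq of 1 library of ES cells and 1 library of E10.5 forebrain was analysed. The authors depleted total RNA of rRNAs, prepared strand-specific libraries, ran the HTSstation RNA-seq workflow on the single-end reads (build NCBIM37, or mm9) and deposited RPKM per gene. The submitters' processing notes name Bowtie 0.12.7. Whether counting used strand, how reads with several positions were treated and how the samples were scaled are not given in the sources used here. The paper and the labels give different read lengths.

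The RPKM were used as deposited. Coordinates of all 29311 listed genes matched the GENCODE annotation of the same build, with starts counted from 0 in the tables, and exonic lengths were taken from it. Genes whose exons span at most 2500 bp served to estimate the worth of 1 read. The share of low values near a whole read was taken over 5557 genes for ES cells and 5329 for E10.5 forebrain. Reads were rounded to whole numbers. Of the 18 values of the 9 genes, 7 lay within 0.05 of a fraction of 0.5 of a read. Whether this reflects reads divided between positions was not tested. Protein-coding transcripts of other genes shared no word of 50 bases with 8 of the genes, and 14 of 4150 with *Eomes*. Levels carry exact Poisson intervals and ratios Clopper-Pearson intervals (95%). A floor of 3 reads was used against a library at 0.

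No test was made. A call is a difference of at least 1 in log2(RPKM + 1). The genes, lists and comparisons were chosen with earlier results of these data known. From each list, the rule named the genes with the largest difference in each direction, the 2 with the highest RPKM, and all T-box and ParaHox genes. Others were chosen after their values were seen. List genes were matched by symbol. *Tbx19*, *Msgn1*, *Cer1* and *Tpbpa* are in the annotation but have no row in the tables and are called not listed. The symbols *Tfap2c*, *Tfap2a* and *Tfcp2l1* do not occur in the annotation, and these genes were not analysed here. Some genes stand on more than 1 list (*Esrrb*, *Hand1*, *Krt8*, *Pdgfra*, *Foxa2*, *Gata4*, *Gata6*, *Kdr*, *Tbr1* and *Tdgf1*). Alternatives covered pseudocounts, scaling, a minimum of reads, a 4-fold limit, the genes used for percentiles and the sum without its leading genes. The scripts were tested on simulated data. Python 3.11.15, numpy 2.4.6, pandas 2.3.3, scipy 1.17.1 and matplotlib 3.10.9 were used.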

Additional observations from a re-analysis of the deposited data

How the results depend on the processing

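No difference of the 9 genes changed sign under pseudocounts of 0.1 and 5 or under the 3 scalings. The count of 5 genes higher in ES cells held under all 7 alternatives. The count of 2 genes higher in E10.5 forebrain became 1 with a 4-fold limit, where *Gsc* passed and *Eomes* did not, and 3 with a pseudocount of 0.1 or with scaling by the sum of RPKM, where *Mesp1* passed on its 1 and 4 reads. The ratio of the summed RPKM depended on single genes, at 3.10 without *T* and 15.5 without *Eomes*, and was 5.01 with scaling by the sum of RPKM, 6.43 with scaling by the upper quartile and 5.67 per 1000000 inferred reads. Scaling by the sum also shifted the median difference of all listed genes by -0.25 and lowered the share of calls that were higher in ES cells from 47.5% to 39.7%. The pseudocount moved the difference most for genes without a read in E10.5 forebrain. That of *Cdx2* was 11.41 with 0.1 and 5.79 with 5, and that of *Cdx4* was 7.43 and 2.14. With at least 3 reads required, 8 of the 9 genes were detected in ES cells against 7 in E10.5 forebrain, compared with 9 and 7 above 0. Of 132 list counts recomputed, 130 stayed within 1.5 times, and the endoderm counts became 1 and 6 with a pseudocount of 5. Within that limit, the counts of the further streak and early mesoderm genes became 5 and 11 with a pseudocount of 5. With scaling by the sum of RPKM they were 7 and 15. Depth limits *Mesp1*, *Mixl1* and the forebrain values of *T* and the Cdx genes. No paired analysis was possible because each group holds 1 library.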

Other observations

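Blood and endothelial genes, which the streak-derived mesoderm gives rise to, were present in the forebrain library. Of 12 such markers, 11 were higher in E10.5 forebrain past 2-fold and 1, *Pecam1*, was within 2-fold (551 in ES cells against 317 in E10.5 forebrain), with a median difference of log2(RPKM + 1) of -6.98. The embryonic globins *Hbb-y* and *Hbb-bh1* reached an RPKM of 367633 and 277516 in E10.5 forebrain, compared with 167 and 100.4 in ES cells. The largest difference was that of *Hba-x*, with 27786 and 6.51. The endothelial receptor *Kdr* had 601 and 24.99, and the cadherin *Cdh5* had 326 and 1.53. In the same library *T*, *Mixl1* and *Mesp1* rested on 3 to 8 reads.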
